A study of Mus musculus with 96 samples.

Results

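Breakpoint-rich nuclei are the single nuclei of the mouse pancreatic cancer line KPC1199EGFP whose copy number profile changed level at more than 60 places. They were chosen by the number of steps in the deposited profile of each nucleus, a step being a difference of more than 1e-09 between neighbouring bins of one chromosome. The rule selected 6 of 94 single nuclei and left 88 nuclei with 60 steps or fewer, called the rest. Because the steps chose the nuclei, every count, size and place of a step given here is a description and carries no test. Levels were taken from whole-genome sequencing of nuclei that were stained with DAPI, sorted by DNA content and amplified one by one.

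All libraries came from one untreated culture of adherent cells at passage 9, on a C57BL\6 background and expressing EGFP. The library titles name 3 gates, which gave 47 nuclei (2N), 35 nuclei (2N+) and 12 nuclei (4N), and what 2N+ stands for is not stated there. A bulk library exists for the 2N gate and another for the 2N+ gate. Nuclei of 1 culture are not replicates of a condition, so nothing here measures the spread between cultures.

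A copy number profile is a row of levels along each chromosome, and it steps up or down where a stretch has more or fewer copies than its neighbour. In tumour cells such steps mark the ends of gained and lost stretches, and cells that descend from one another share them. Cells that are copying their DNA hold more of the domains that are copied early than of those copied late, and amplification of the DNA of 1 nucleus can copy stretches unevenly. No map of early and late domains was used here, and the part of either process in the values below was not tested.

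The deposited values are ratios to the level of the library as a whole, already averaged over segments. The number of reads behind a bin is unknown, so no counting error can be given and errors come only from the spread between nuclei. A ratio was turned into copies with one multiplier per nucleus, which ran from 2.15 to 2.50 in the breakpoint-rich nuclei and from 2.2 to 4.70 in the rest. Among nuclei sorted as 4N it ran from 2.2 to 2.50 in the breakpoint-rich and from 2.25 to 4.70 in the others. The multiplier is found from the ratios alone and does not use the gate. A nucleus with all chromosomes doubled has the same ratios, so copies given for 4N nuclei may be too low. The deposited table has 4906 bins with a median width of 486 kb, of which 4636 lie on autosomes.

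The 6 nuclei came from the 2N+ and the 4N gate. Nucleus 4N 9 had 112 steps, 2N+ 22 had 91, 2N+ 24 had 87, 4N 10 had 83, 2N+ 31 had 72 and 4N 7 had 70. Their mean was 85.8 ± 15.3 steps (SD, n = 6 nuclei), and the rest had from 5 to 44 with a median of 19. Just outside the limit stood 2N+ 5 with 44 steps, followed by 2N+ 11 and 4N 6 with 36 each, so no nucleus lay between 44 and 70. None of 47 nuclei sorted as 2N was breakpoint-rich, which allows a share of up to 6.38% by 3 counts of the total and of up to 7.55% by the exact Clopper-Pearson interval. Of 35 nuclei sorted as 2N+, 3 were, or 8.57% (95% exact Clopper-Pearson interval 1.80% to 23.1%). Of 12 nuclei sorted as 4N, 3 were, or 25% (5.49% to 57.2%). These exact intervals cover counting error only and treat the nuclei of a gate as independent draws. They overlap, but overlap does not show that the shares are alike. Whether the share differs between gates was not tested. Sample numbers in the titles, 70, 72 and 79 for the 2N+ nuclei and 91, 93 and 94 for the 4N nuclei, follow the gate, so title number and gate cannot be told apart.

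**Figure D1:**
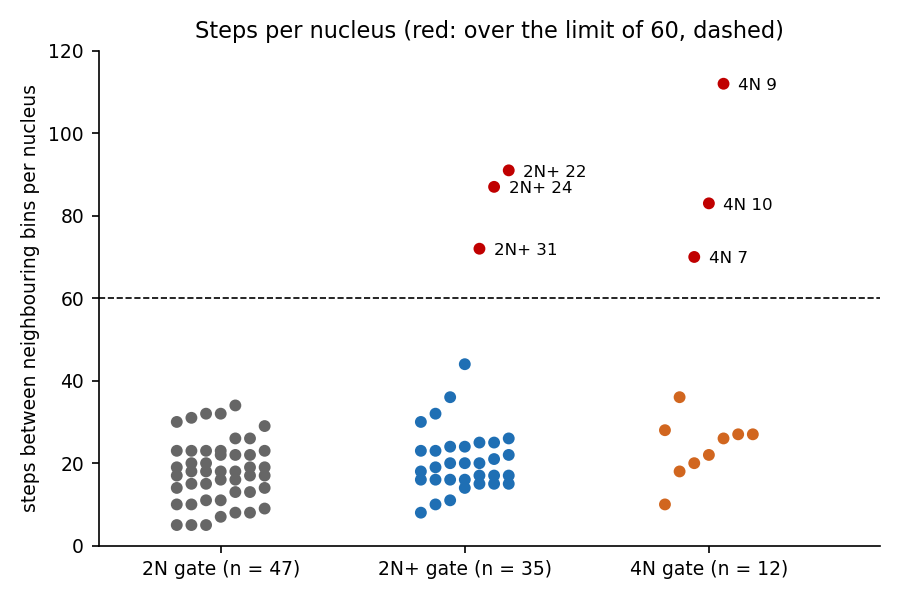
Steps per nucleus in the 2N, 2N+ and 4N gates, one point per nucleus, with the limit of 60 dashed and the nuclei above it in red and named. The 6 named nuclei sit between 70 and 112 steps, and the highest of the others is at 44.

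The surplus was spread over most of the autosomes. Autosomal steps numbered 98 in 4N 9, 89 in 2N+ 22, 81 in 2N+ 24, 75 in 4N 10, 68 in 2N+ 31 and 64 in 4N 7, against 5 to 39 in the rest. A step was called recurrent where 5 or more nuclei of the rest had a step within 2 bins, and extra otherwise. Of 475 autosomal steps in the 6 nuclei 403 were extra, compared with 688 of 1673 in the rest. Per nucleus the extra steps made up from 78.7% of the steps in 4N 10 to 92.9% in 4N 9, and the rest had a median of 40%. Extra steps fell on 18 of 19 autosomes in 2N+ 24, on 17 in 2N+ 22, on 16 in 4N 9, on 15 in 2N+ 31 and on 14 each in 4N 7 and 4N 10. In the rest they fell on 0 to 12 autosomes, with a median of 4.

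Density differed between chromosomes. Per 100 Mb and nucleus, extra steps stood at 2.73 over all autosomes in the 6 nuclei and at 0.318 in the rest. Chromosome 19 had the highest density, with 4.93, followed by chromosome 15 with 4.37, chromosome 6 with 4.36 and chromosome 17 with 4.22. The lowest were chromosome 7 with 1.10, chromosome 10 with 1.29, chromosome 1 with 1.44 and chromosome 2 with 1.84. Of these 8, only chromosome 6 had extra steps in all 6 nuclei, with 10 in 4N 7, 8 in 4N 10, 7 in 2N+ 22 and in 2N+ 24, 4 in 2N+ 31 and 3 in 4N 9. On chromosome 19 the numbers were 6 in 4N 10, 5 in 2N+ 22, 4 in 4N 9, 2 in 4N 7, 1 in 2N+ 24 and 0 in 2N+ 31, so its rank rests on a few nuclei and few steps. Over all autosomal steps, recurrent ones included, the order at the top was another. Chromosome 11 had 6.18 per 100 Mb and nucleus, chromosome 8 had 5.72, chromosome 15 had 5.02 and chromosome 19 had 4.93. Chromosome 2 stood at 3.03. On chromosomes 7 and 10 all 10 steps of each were extra, so these stayed lowest, at 1.10 and 1.29. Of the nuclei of the rest, 97.7% carried a step on chromosome 2, 58% on chromosome 7 and 7.95% on chromosome 10.

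Within chromosomes the steps lay in all parts. Each chromosome was cut into 3 equal lengths. The first held from 23.4% to 40.4% of a nucleus' autosomal steps, the middle one from 28.1% to 45.6% and the last one from 28% to 45.3%, against 30.8%, 33.5% and 35.7% of all autosomal bins. Within 5 Mb of the first or last bin of a chromosome lay 6.17% of the steps in 2N+ 24, 5.62% in 2N+ 22, 3.06% in 4N 9, 2.94% in 2N+ 31, 1.56% in 4N 7 and 1.33% in 4N 10. These windows hold 6.13% of autosomal bins, so 5 of the 6 nuclei were below that share and 2N+ 24 was at it.

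Steps of the breakpoint-rich nuclei were on the log2 scale larger than those of most of the rest. The median absolute difference across an autosomal step, on the log2 scale, was 0.70 in 4N 7, 0.52 in 4N 9, 0.51 in 2N+ 24, 0.50 in 2N+ 22, 0.48 in 4N 10 and 0.45 in 2N+ 31. In the rest it ran from 0.13 to 0.63 with a median of 0.30, and 14 of 88 nuclei lay inside the range of the 6. Expressed in copies, the median step was 0.999 in 4N 7 and from 0.619 to 0.820 in the other 5 nuclei. In the rest it ran from 0.251 to 1.08 with 31 of 88 nuclei inside the range of the 6. The rest sorted as 4N had a median of 0.801, at multipliers of up to 4.70, which enlarge a step in copies. Steps of at least 0.5 copies made up 53.3% of autosomal steps in 4N 10 and from 79.8% to 93.8% in the other 5, and the rest had a median of 51.9%, with 39 of 88 nuclei inside the range of the 6.

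More steps meant shorter segments. The median autosomal segment held 29 bins in 2N+ 31, 23 in 4N 7, 20.5 in 2N+ 22 and in 4N 10, 17.5 in 2N+ 24 and 16 in 4N 9. In the rest the medians ran from 37.5 to 225.5 bins and did not overlap with these. The shortest segment of each of the 6 nuclei was 2 or 3 bins long, as it was in 43 of 88 nuclei of the rest.

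Short dips were numerous, a short dip being a segment of 20 bins or fewer with a level below both neighbours. A stretch at the usual level of its chromosome also counts as a dip where it lies between raised neighbours. The dip of 2N+ 24 on chr13:83115188-89947077, for example, lay at 1.90 copies, the median of that chromosome, on flanks of 2.35. Dips of this kind were not counted apart, so numbers and depths of dips do not measure losses. Nucleus 4N 9 had 35 short autosomal dips, 2N+ 22 had 31, 4N 7 had 28, 2N+ 24 had 25, 4N 10 had 22 and 2N+ 31 had 15. The rest had from 0 to 6, with a median of 2. Short peaks, which lie above both neighbours, numbered 16 in 4N 9 and in 2N+ 24, 15 in 2N+ 31, 12 in 4N 10, 8 in 4N 7 and 5 in 2N+ 22, against 0 to 6 in the rest. Dips outnumbered peaks in 5 of the 6 nuclei, and in 2N+ 31 they were equal. The widest gap was in 2N+ 22, where dips stood at 31 and peaks at 5.

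**Figure D2:**
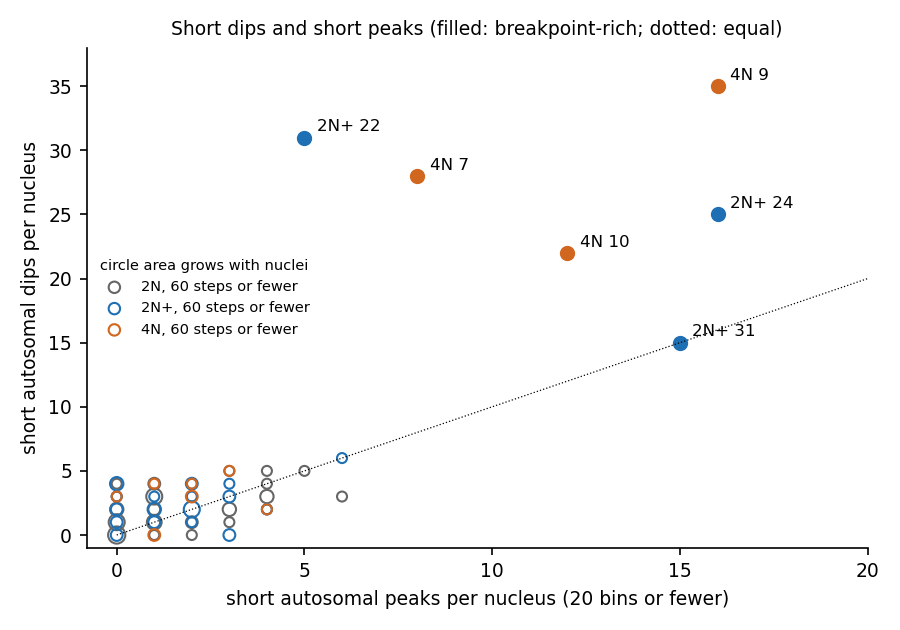
Short autosomal dips against short autosomal peaks, both as numbers per nucleus, coloured by gate, with filled points for the breakpoint-rich nuclei and open circles for the rest. The 6 nuclei lie between 15 and 35 dips while every nucleus of the rest has 6 or fewer, and of the 6 only 2N+ 31 lies on the line of equal numbers.

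Peaks were as a rule the wider form. A stretch at the usual level of its chromosome counts as a peak where it lies between neighbouring dips. The width of peaks therefore depends in part on the spacing of dips and does not measure gains. Over segments of any length the median dip held 4.0 bins in 4N 7, 5.0 in 4N 10, 7.0 in 4N 9, 8.0 in 2N+ 24, 9.0 in 2N+ 22 and 15 in 2N+ 31, and the median peak held from 12.5 bins in 2N+ 31 to 37 in 2N+ 22. Only in 2N+ 31 was the median peak narrower than the median dip. Short dips covered from 2.76% of autosomal bins in 4N 10 to 5.87% in 2N+ 22, and at most 1.38% in any nucleus of the rest.

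Dips were narrower in the 4N nuclei. The median short dip spanned 2.03 Mb in 4N 7, 2.16 Mb in 4N 10 and 2.86 Mb in 4N 9, and 3.86 Mb in 2N+ 24, 4.18 Mb in 2N+ 22 and 5.70 Mb in 2N+ 31. The values of the gates did not overlap, with 3 nuclei each and no test. Bins inside the dips had median widths of 497 to 498 kb in the 4N nuclei and of 469 to 470 kb in the 2N+ nuclei, against 483 kb for all autosomal bins. How the borders of the bins were set is not stated in the labels.

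The depth of a dip was read as its ratio over the mean ratio of both neighbouring segments, which needs no multiplier. The median over short dips was 0.607 in 4N 7, 0.663 in 4N 10, 0.67 in 4N 9, 0.680 in 2N+ 24, 0.697 in 2N+ 22 and 0.720 in 2N+ 31. The 191 short dips of the rest had a median of 0.805, and 31 of them were at 0.7 or deeper. Those 191 are pooled over nuclei and include recurrent places, such as chr8:91050079-95672399 with a short dip in 42 nuclei of the rest. Dips spanning chr16:80661654-83740531, another such place, had ratios from 0.656 in 2N 40 to 0.808 in 2N 32. The median and the count for the rest therefore depend on the places pooled. Of the dips in 4N 7, 25 of 28 were at 0.7 or deeper, compared with 16 of 22 in 4N 10, 22 of 35 in 4N 9, 15 of 25 in 2N+ 24, 16 of 31 in 2N+ 22 and 6 of 15 in 2N+ 31. Below 0.6 lay 12 of 28 dips in 4N 7, 5 of 35 in 4N 9, 3 of 25 in 2N+ 24, 3 of 22 in 4N 10, 1 of 31 in 2N+ 22 and 0 of 15 in 2N+ 31. The deepest was at 0.439, in 4N 7, and the deepest of the other 5 nuclei were between 0.547 and 0.652.

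Dips were compared with the loss of whole copies. Loss of 1 copy from a flank at 2 copies gives a ratio of 0.5, and from a flank at 3 copies 0.667. These marks take the multiplier as right. In a 4N nucleus with all chromosomes doubled, loss of 1 copy would give a shallower dip. On flanks at 2 copies the medians of the 6 nuclei ran from 0.608 to 0.740, all shallower than 0.5, while on flanks at 3 copies they ran from 0.607 to 0.718 and lay on both sides of 0.667. In 4N 7 the medians were 0.608 over 12 dips on flanks at 2 copies and 0.607 over 16 dips on flanks at 3 copies. In 2N+ 22 they were 0.715 and 0.688, in 2N+ 31 0.740 and 0.718, and in 4N 10 0.686 and 0.635, so these 4 nuclei were as deep or deeper on flanks at 3 copies. In 4N 9 they were 0.609 and 0.681 and in 2N+ 24 0.656 and 0.703, so these were deeper on flanks at 2 copies, the direction that loss of 1 copy gives. A level within 0.2 copies of a whole number was reached by 17 of 35 dips in 4N 9, 13 of 28 in 4N 7, 9 of 25 in 2N+ 24, 8 of 31 in 2N+ 22, 7 of 22 in 4N 10 and 3 of 15 in 2N+ 31. Of all autosomal bins, 81% to 97.1% in the 6 nuclei lay that near. A band of 0.2 copies on both sides of every whole number takes in a large part of all levels. These counts therefore do not mark dips that lost whole copies.

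**Figure D3:**
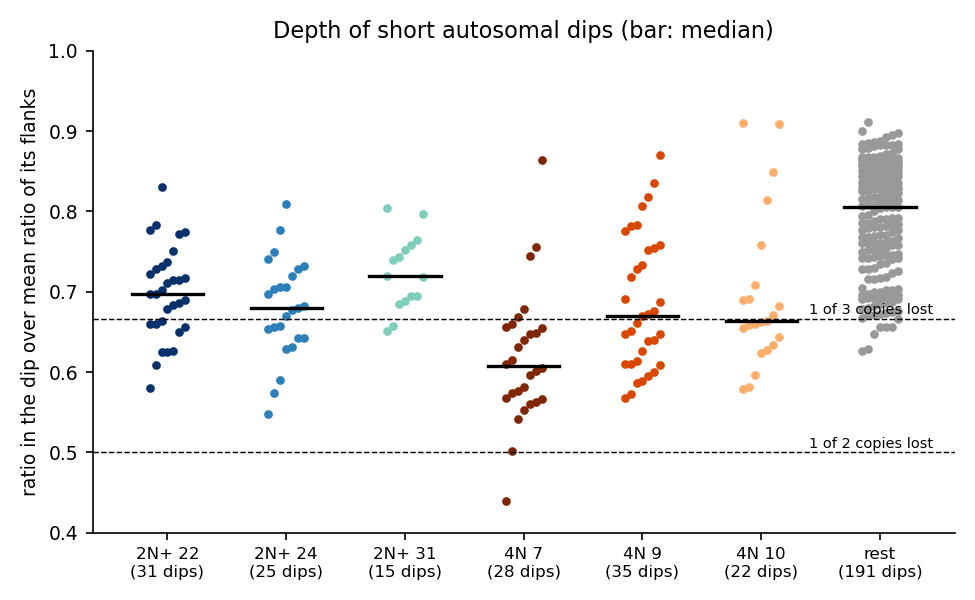
Ratio inside each short autosomal dip over the mean ratio of its flanks, one point per dip, for the 6 breakpoint-rich nuclei and for the rest together, with a bar at the median. Dashed lines at 0.5 and 0.667 show where loss of 1 copy from flanks at 2 and at 3 copies would lie, and the medians of the 6 nuclei sit between 0.607 and 0.720.

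Extra steps of one breakpoint-rich nucleus often lay beside a step of another. Within 2 bins of a step of another of the 6 lay 36 of 52 extra steps in 4N 7 (69.2%), 48 of 75 in 2N+ 22 (64%) and 37 of 59 in 4N 10 (62.7%). The shares were lower in 2N+ 24, with 35 of 68 (51.5%), in 4N 9, with 44 of 91 (48.4%), and in 2N+ 31, with 26 of 58 (44.8%). The autosomal bins that lie as near to such a step made up 31% for 4N 7, 29.5% for 2N+ 22, 29.8% for 4N 10, 29.2% for 2N+ 24, 27.7% for 4N 9 and 29.2% for 2N+ 31. Each nucleus' share was thus above that of all bins.

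Extra steps lay together in 5 of the 6 nuclei at 4 places and in 4 of them at a further 4. Places with 5 nuclei lay on chromosomes 6, 8 and 11, and those with 4 on chromosomes 11, 12 and 19. A match took no account of whether the level rose or fell. The places on chromosome 6 are the borders of a single dip of 4N 10, 3 bins wide. With a match within 2 bins, single steps of 2N+ 22 and 2N+ 24 counted at both, so these places are not separate. In mm9, 2N+ 22, 2N+ 24, 2N+ 31, 4N 7 and 4N 10 had a step within 2 bins of chromosome 6 position 101213225 and of position 102742448 on the same chromosome, which 2 and 1 nuclei of the rest shared. On chromosome 8, 2N+ 22, 2N+ 31 and all 3 of the 4N nuclei had one at 17851768, with no nucleus of the rest. On chromosome 11, all but 4N 10 had one at 63383141, shared by 4 nuclei of the rest, and 2N+ 22, 2N+ 24, 4N 7 and 4N 9 had one at 45889717, shared by none. The last was the first in genome order of the 4 places with 4 nuclei, the others being 55253556 on chromosome 11, 17568221 on chromosome 12 and 51953183 on chromosome 19. No annotation of this build was used, so no gene is placed at these positions.

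In 5 of the 6 nuclei more dips were shared within the gate than across gates, and in 2N+ 22 the numbers were equal. For the 4N nuclei, 16 of 22 short dips of 4N 10 touched a short dip of another 4N nucleus among the 6, as did 18 of 28 in 4N 7 and 14 of 35 in 4N 9. Among all autosomal windows as wide as those dips, 13.1%, 12% and 10.1% did. For the 2N+ nuclei, 14 of 25 dips of 2N+ 24 touched a dip of another breakpoint-rich 2N+ nucleus, as did 8 of 15 in 2N+ 31 and 15 of 31 in 2N+ 22, against 14.1%, 16.9% and 12.3% of windows. Every one of the 6 nuclei was above its windows.

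Across gates the overlap was nearer to that of the windows. A short dip of any of the 3 nuclei of the other gate was touched by 15 of 31 dips of 2N+ 22 (48.4%, windows 19%), 9 of 28 of 4N 7 (32.1%, windows 14.5%) and 8 of 25 of 2N+ 24 (32%, windows 18.6%). The shares were 11 of 35 in 4N 9 (31.4%, windows 16.6%), 4 of 15 in 2N+ 31 (26.7%, windows 20.9%) and 5 of 22 in 4N 10 (22.7%, windows 15.1%). All 6 were above their windows. Here 3 nuclei could be touched, where within a gate only 2 could.

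Single pairs stood out in the counts. The pair 2N+ 22 and 2N+ 24 shared 13 dips, of 31 and 25, and the pair 4N 7 and 4N 10 shared 12, of 28 and 22. The lowest counts were 2 shared dips, between 4N 10 and each of 2N+ 24 and 2N+ 31. At 7 places a pair of nuclei had dips with the same first and last bin. Of these 7 pairs of dips 5 were within a gate and 2 joined 2N+ 22 with 4N 9, on chr1:186825107-191007825 and on chr7:143509236-145810190.

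**Figure D4:**
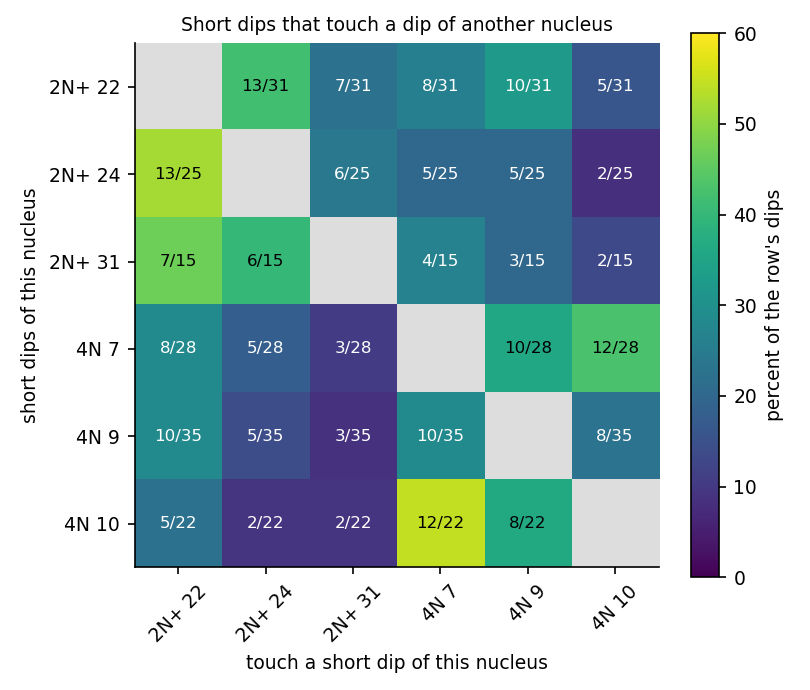
Number of short autosomal dips of each breakpoint-rich nucleus (rows) that touch a short dip of each of the others (columns), over the row's total, with colour for the percentage. The brightest cells are 12 of 22 for 4N 10 with 4N 7 and 13 of 25 for 2N+ 24 with 2N+ 22, and the darkest is 2 of 25 for 2N+ 24 with 4N 10.

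Dips were also set against those of the rest. No nucleus of the rest had a short dip touching 30 of the 35 dips of 4N 9, 20 of 28 of 4N 7, 17 of 22 of 4N 10, 20 of 31 of 2N+ 22, 15 of 25 of 2N+ 24 and 6 of 15 of 2N+ 31. Dips that touched none in any of the other 93 nuclei were fewer, with 14 in 4N 9, 7 in 2N+ 24, 6 in 4N 7, 5 in 2N+ 22 and 3 each in 2N+ 31 and 4N 10. The windows as wide as the dips that touched a short dip of any nucleus of the rest made up 24.4% for 4N 9, 21.9% for 4N 7, 22.6% for 4N 10, 26.5% for 2N+ 22, 26.1% for 2N+ 24 and 28.3% for 2N+ 31. The dips that did so were 14.3%, 28.6%, 22.7%, 35.5%, 40% and 60% in the same order, so 4N 9 was below its windows, 4N 10 at them and the others above.

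In 13 regions, 12 of them autosomal, the same bins lay in a short dip of at least 3 of the 6 nuclei. They were singled out after their values were seen. No nucleus of the rest had a short dip in 6 of them and 1 nucleus had one in 4. Their positions are in mm9, counted from 1, and span the bins that at least 3 nuclei shared.

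The 3 dips found in 4N nuclei or mainly there lay on chromosomes 6, 8 and 19. At chr6:61940331-63980803 the level was 1.66 copies in 4N 7 on flanks of 2.92, 1.97 in 4N 10 on 2.94 and 2.19 in 4N 9 on 2.89, while 2N+ 22, 2N+ 24 and 2N+ 31 had 2.84, 2.96 and 3.06 copies and no dip. At chr8:29675744-31222052, 4N 7 fell to 1.73 copies on flanks of 3.05, 4N 9 to 1.84 on 3.0 and 4N 10 to 1.36 on 2.00. The dips of 4N 7 and 4N 9 there had the same borders. At chr19:48995823-52451660 the dips stood at 1.94 copies in 4N 7, 1.95 in 4N 9 and 1.78 in 4N 10, on flanks of 2.99, 2.95 and 2.85, and 2N+ 22 had a shallower one, at 2.59 on 3.12. No nucleus of the rest had a short dip in any of these regions.

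Dips found in the 2N+ nuclei or mainly there lay on chromosomes 11 and 12. At chr12:104567216-108923535 the level was 1.4 copies in 2N+ 22, 1.5 in 2N+ 24 and 1.36 in 2N+ 31, on flanks of 1.96, 2.13 and 1.96, and no nucleus of the rest dipped there. At chr11:63383141-68028491 it was 1.86 copies in 2N+ 22, 2.28 in 2N+ 24 and 2.35 in 2N+ 31 on flanks of 2.82, 3.17 and 3.26, and 4N 9 had a narrower dip of 3 bins at 2.01 on 2.97. A wider dip at chr12:17568221-31310180 spanned 17 bins in each of the 3 breakpoint-rich 2N+ nuclei. It lay at 1.34 copies in 2N+ 22, 1.31 in 2N+ 24 and 1.42 in 2N+ 31, on flanks of 1.87, 1.99 and 1.89. Narrower dips lay there in 4N 7 and 4N 10, and 4 nuclei of the rest had dips. Bins are sparse in this stretch, with 4 on chr12:17568221-25208739 where the median bin of the table is 486 kb wide. Its width in Mb therefore rests on few bins.

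**Figure D5:**
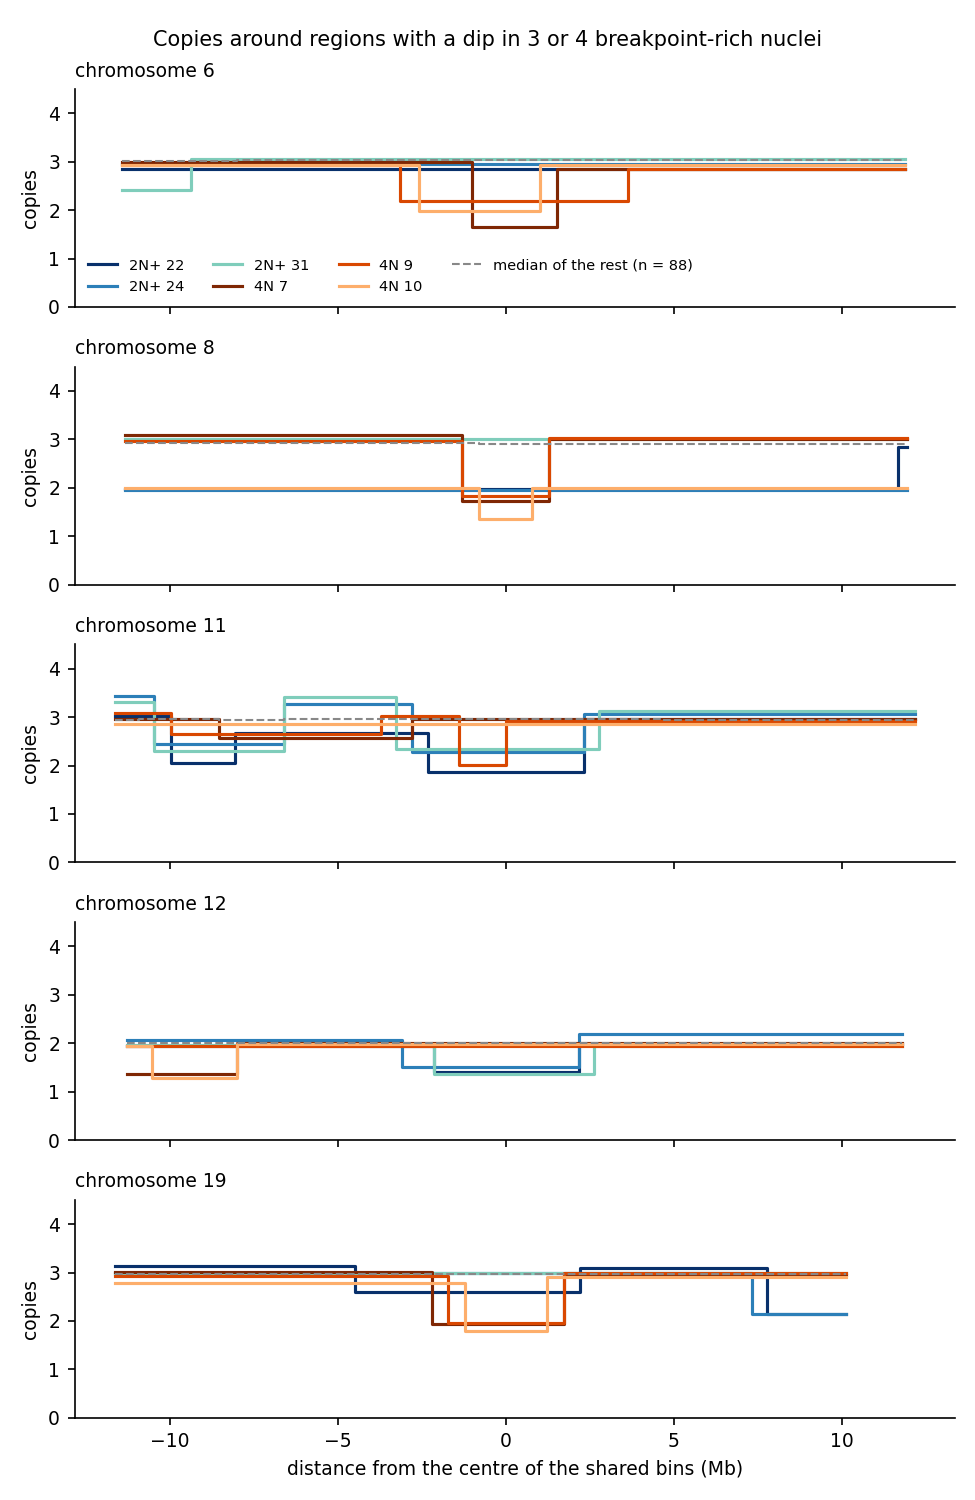
Copies per bin around the 5 autosomal regions that dipped in 3 or 4 breakpoint-rich nuclei and in none of the rest, against distance from the centre of the shared bins in Mb, with one line per breakpoint-rich nucleus and a dashed line for the median of the 88 others. The 4N lines drop on chromosomes 6, 8 and 19, the last with a shallower drop of 2N+ 22. The 2N+ lines drop on chromosome 11, with a narrower drop of 4N 9, and on chromosome 12. On chromosome 12 levels were 1.36 to 1.5 copies on flanks near 2. The dashed lines run flat.

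Both gates contributed to other regions. At chr8:15378000-17851767 dips stood at 1.55 copies in 2N+ 22, 2.42 in 2N+ 31, 2.33 in 4N 7, 1.81 in 4N 9 and 1.43 in 4N 10, on flanks of 2.00, 3.19, 3.08, 3.04 and 2.02. At chr7:143509236-145810190 they were at 1.21 copies in 2N+ 22, 1.23 in 2N+ 24 and 1.24 in 4N 9, on flanks of 1.94, 1.96 and 2.03. In both, 2N+ 25 was the only nucleus of the rest with a dip. In contrast, at chr8:91050079-95672399, where all 3 of the 2N+ nuclei dipped, 42 of the 88 others did as well.

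Some changes belonged to a single nucleus. The widest autosomal dip or peak that no other nucleus shared was a peak on chr13:95488758-113435798 in 2N+ 24, at 2.24 copies on flanks of 1.25, and a peak on chr4:92672117-110640326 in 4N 7, at 1.97 on 1.36. In 4N 10 it was a peak on chr5:39091072-55499272, at 2.08 on 1.54, and in 2N+ 31 a peak on chr5:63951233-66791272, at 2.73 on 1.99. In 4N 9 and 2N+ 22 it was a dip, on chr3:110858908-119644070 at 3.28 copies on flanks of 3.92 and on chr17:3988540-11668077 at 2.18 on 3.17. These stretches spanned from 2.84 Mb in 2N+ 31 to 18 Mb in 4N 7. A peak is defined only against its neighbours. Short dips of the same nucleus flanked the chr13 peak of 2N+ 24 and the chr4 peak of 4N 7 on both sides. The medians of those chromosomes were 1.90 copies in 2N+ 24 and 2.09 in 4N 7. A short dip at 1.18 copies adjoined the chr5 peak of 4N 10, where the chromosome median was 2.01. These peaks beside dips are therefore not read as gains.

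Levels along whole autosomes were compared as deviations. Each bin's log2 ratio was set against the median of its chromosome in that nucleus and against the median of the rest at that bin. Among the 15 pairs of breakpoint-rich nuclei, Pearson's r over autosomal bins had a median of 0.254 and ran from -0.0201 to 0.678. The 3828 pairs of the rest had a median of 0.0736 and ran from -0.656 to 0.970, so single pairs of the rest were more alike than any of the 15. The highest were 2N+ 22 with 2N+ 24, at 0.678, 2N+ 24 with 4N 10, at 0.576, and 2N+ 22 with 4N 10, at 0.496. Those 3 nuclei have the same copies of chromosomes 3, 15 and X, as given below. Set against a running median of 61 bins in place of the chromosome median, these pairs fell to 0.491, 0.273 and 0.195, and 2N+ 22 with 2N+ 31 came second, at 0.294. The median over the 15 pairs was then 0.187, against 0.0316 in the rest. With the limit at 80 steps, which leaves 4 nuclei, the median against the chromosome median was 0.385. Nucleus 2N+ 31 was between -0.0201 and 0.00360 with the 3 breakpoint-rich 4N nuclei. Bins within a segment share one value and are not independent, so these are descriptions.

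The breakpoint-rich 2N+ nuclei lay farther from whole copies than most of the rest of their gate, and of the 4N nuclei 2 of 3 lay nearer than the median of theirs. The root mean squared distance of autosomal levels from whole numbers was 0.163 copies in 2N+ 31, 0.162 in 2N+ 22, 0.144 in 2N+ 24, 0.129 in 4N 9, 0.0960 in 4N 10 and 0.0863 in 4N 7. In the rest it ran from 0.0470 to 0.206 with a median of 0.0748, and 19 of 88 nuclei were inside the range of the 6. By gate the medians of the rest were 0.0762 for 32 nuclei sorted as 2N+, with a highest value of 0.164, and 0.107 for 9 sorted as 4N. A distance in copies depends on the multiplier, which reached 4.70 in those 9 and 2.50 in the breakpoint-rich 4N nuclei. The 4N nuclei were therefore not compared on a common scale. Within 0.2 copies of a whole number lay 81% to 81.9% of autosomal bins in the 2N+ nuclei and 90.8% to 97.1% in the 4N nuclei, against medians of 97.9% for the rest sorted as 2N+ and 91.9% for those sorted as 4N. The 2N+ and the 4N values did not overlap, with 3 nuclei each and no test.

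By whole chromosomes the 6 nuclei were not alike. At the medians of chromosomes 3, 15 and X, rounded, 2N+ 22, 2N+ 24 and 4N 10 had 3, 2 and 1 copies. Nuclei 2N+ 31 and 4N 9 had 4, 3 and 2, and 4N 7 had 4, 3 and 1. The first combination was found in 34 of 47 nuclei sorted as 2N, 4 of 12 sorted as 4N and 3 of 35 sorted as 2N+, so 2 of its 3 carriers among 2N+ nuclei were breakpoint-rich. The second was found in 20 of 35 nuclei sorted as 2N+, and 4N 9 alone had it among those sorted as 4N. Over all bins the nucleus of the rest most like 4N 10 was 2N 1, with r = 0.969, and the one most like 4N 7 was 2N 16, with r = 0.803.

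Steps on the X chromosome followed the same order only in part. There were 14 in 4N 9, 8 in 4N 10, 6 each in 2N+ 24 and 4N 7, 4 in 2N+ 31 and 2 in 2N+ 22. In the rest 67 of 88 nuclei had none and the highest had 5. At chrX:56738021-60647165 the nuclei 4N 7, 4N 9, 4N 10 and 2N+ 22 each had a dip, at 0.756, 2.01, 0.675 and 0.897 copies. Their flanks stood at 1.17, 2.92, 1.01 and 1.19 copies. No nucleus of the rest dipped there. In 4N 9 the median of the X chromosome was 2.05 copies, so its dip lay at the usual level between raised flanks.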

How the data were processed

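The deposited table holds 1 column per library, 94 single nuclei and 2 bulk libraries. The authors' values are segmented linear ratios to the genome-wide level (library means 0.994 to 1.09) in mm9 bins. Per the submitters' processing notes, reads were handled with Bowtie 1.0 and mm9. How bins were built, corrected for GC and segmented, and how duplicates were treated, is not stated in these sources. The log2 of every deposited value was a multiple of 0.0001 within 1e-06. Data lines were split at white space, and file positions, which count from 0, were raised by 1.

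Steps, dips, peaks and overlaps were computed in Python 3 with numpy and pandas. Copies are ratios times the multiplier (1.5 to 6, steps of 0.05) that brings autosomal ratios nearest to whole numbers. Step detection was tested on simulated profiles. Shares of windows count every autosomal window as wide as a dip. No sample was left out, and no test was run. Named were the 6 nuclei, those next to the limit, the 4 autosomes highest and the 4 lowest in extra steps, the 5 most shared step positions, and each nucleus' widest unshared dip or peak. Members, lists and measures were chosen with earlier results of these data known. The short-dip limit of 20 bins was chosen after seeing the data.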

Additional observations from a re-analysis of the deposited data

Results flagged for a closer look

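In 3 of 27 measures one of the 6 breakpoint-rich nuclei stood far from the other 5, with a gap to the nearest that is large against the range of all. Chance marks about 1 in 20 such groups. The median log2 difference across a step was 0.70 in 4N 7 and 0.52 in the next nucleus. The share of steps of at least 0.5 copies was 53.3% in 4N 10 and 79.8% in the next. The share of steps in the last of 3 equal lengths of a chromosome was 45.3% in 4N 7 and 33.7% in the next.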

How the results depend on the processing

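Over 12 results and 100 alternatives, 92 values stayed within 1 SD of the 6 nuclei. For the number of breakpoint-rich nuclei the limit was 1.5 times, and for the correlation of deviations it was 1 SD of the 15 pairs. Changes of direction were not assessed. Many alternatives left out 1 of the 6 nuclei, or with a limit of 50 steps kept the same 6, and so by design lay close to the main setting. A fall from 6 to 4 nuclei counted as within the limit of 1.5 times. The count of 92 is therefore no measure of robustness. With a limit of 40, 50 or 80 steps, 7, 6 or 4 nuclei were breakpoint-rich, and 4 when a step needed 0.5 copies. The median share of extra steps within 2 bins of another of the 6 was 57.1%. It was 41% at a limit of 80 steps, where fewer nuclei remain to share with, and 24.1% when steps had to lie at the exact bin, where 7.12% to 7.96% of bins hold such a step (27.7% to 31% within 2 bins). Leaving out 1 nucleus gave 38.2% to 58.7%, and for the median share of dips touching one of the own gate, 54.7%, it gave 40% to 53.3%. Steps within 10 Mb of an end made up 9.23%, where 13.7% of bins lie. Short dips of at most 10 bins had a median of 19 per nucleus, against 26.5 at 20 bins, an alternative added after seeing the data. No paired analysis was possible because no test compares groups. Segmented ratios hide changes shorter than a segment and give no read depth.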

Other observations

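Nucleus 2N+ 25, one of the rest with 32 steps, carried 6 short dips at a median of 0.775 of their flanks. Of these, 4 touched a dip of 2N+ 22 and 4 touched a dip of 2N+ 24, and it has the same copies of chromosomes 3, 15 and X as both. Its deviation along autosomes correlated with those of 4N 10, 2N+ 24 and 2N+ 22 at r = 0.736, 0.730 and 0.631 over bins. The bulk libraries of the 2N and the 2N+ gate had 20 and 31 steps and 1 and 3 short dips.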
